A study of Homo sapiens with 9 samples.

Results

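The 77 genes described here carry the symbols of mitochondrial ribosomal proteins, 48 named for the large subunit (MRPL) and 29 named for the small subunit (MRPS), out of 38478 gene rows in a table of messenger RNA counts. They were chosen by symbol alone: a row was a member if its whole name was MRPL or MRPS, a number and at most one letter from A to C. The cells were OPM-1, a human multiple myeloma line, stably expressing RNAs against 1 or both of FBXW7 and KMT2D or against luciferase. The group labelled gFBXW7 + gKMT2D carried both, the group labelled gFBXW7 carried the first, and the group labelled gLuc carried the luciferase control, with 3 libraries in each. Every library is labelled wild type in genotype, and all cells were grown in RPMI with fetal bovine serum. How the RNAs act, how much of each protein was left and whether the cells were pools or clones is not given in the sources used here. The replicates are described as independent biological ones.

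The mitochondrial ribosome makes the few proteins that mitochondrial DNA encodes, all of them membrane subunits of the respiratory chain and the ATP synthase. Its ribosomal RNAs come from mitochondrial DNA, whereas each of its proteins is encoded in the nucleus, made in the cytosol and imported. The large subunit holds the peptidyl transferase centre and the exit tunnel, and the small subunit holds the decoding centre. Many of its proteins have a counterpart in bacterial ribosomes, and the others are specific to mitochondria. FBXW7 is an F-box protein that marks MYC and other proteins for degradation, and KMT2D is a histone H3 lysine 4 methyltransferase of enhancers.

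Libraries held between 16337492 and 27076242 counts. All 9 listed plasma cell markers averaged at least 10 CPM (counts scaled to library size), and 15 of 17 markers of other cells averaged under 1 CPM, with a summed level of 24.6 to 46.1 CPM per library. Most of that sum was the erythroid marker HBB, whose level lay between 21.8 and 43.7 CPM over the libraries and did not pass the test in any comparison. FBXW7 messenger RNA was at 46.0, 45.2 and 71.7 CPM in gFBXW7 + gKMT2D cells, at 53.4, 55.5 and 54.8 CPM in gFBXW7 cells and at 53.8, 47.9 and 48.7 CPM in gLuc cells. KMT2D messenger RNA was at 48.0, 107 and 28.6 CPM in gFBXW7 + gKMT2D cells, at 48.8, 65.1 and 59.1 CPM in gFBXW7 cells and at 41.0, 58.3 and 104 CPM in gLuc cells. Neither targeted transcript was lower beyond the spread between libraries, so transcript levels do not check the labels. The gFBXW7 + gKMT2D libraries of replicate 2 and replicate 3 stood apart from each other for the genes described here. Medians over these genes are therefore also given without some single libraries, among them those whose omission gave the lowest and the highest median. The gFBXW7 + gKMT2D library of replicate 3 was extreme over all tested genes too, with 30.8% of them at their highest and 33.0% at their lowest value there.

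Of the 77 genes, 75 passed the filter on low counts, all 48 of the large subunit and 27 of the small subunit. MRPS24 and MRPS18B did not. MRPS18B (chr6:30617709-30626395, plus strand), 1 of 3 paralogs related to bacterial S18, had 0 reads in each of the 9 libraries. Its row gives a gene length 6.67 times that of its longest GENCODE transcript, and 25 of the 30 coding rows within 500000 bases of it had under 100 reads in all libraries together. That is 83.3%, against 43.4% of 18656 other coding rows. The median ratio of row length to longest transcript was 7.09 in this window, against 1.07 over the other coding rows. MRPS24 (chr7:43866558-43869893, minus strand) had 1, 2 and 1 reads in gFBXW7 + gKMT2D libraries, 3, 0 and 0 reads in gFBXW7 libraries and 1, 0 and 0 reads in gLuc libraries. The readthrough gene URGCP-MRPS24 overlaps 23.2% of its exon bases on the same strand, and its row holds no reads either. Whether reads of these genes were lost in counting was not tested. A count of 0 allows up to 0.111 to 0.184 CPM, for counting error only, and this bound would not hold if reads were lost.

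All 75 tested genes were expressed above the median of the 13262 tested genes, which was 5.43 RPKM (reads scaled to gene length and library total). Their mean levels over the 9 libraries spanned 52.7-fold, with the highest at 460.1 RPKM for MRPL51 and the lowest at 8.74 RPKM for MRPS25. The median was 54.0 RPKM over the large subunit genes and 38.7 RPKM over the small subunit genes. MRPL51 alone supplied 7.52% of the summed CPM of the large subunit, and MRPS34 supplied 11.5% of that of the small subunit.

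MRPL51, a mitochondria-specific protein of the large subunit (chr12:6491886-6493841, minus strand), averaged 459 ± 211 RPKM in gFBXW7 + gKMT2D cells, 517 ± 50.3 RPKM in gFBXW7 cells and 405 ± 141 RPKM in gLuc cells (SD, n = 3 each). MRPS34, a mitochondria-specific protein of the small subunit (chr16:1771890-1773155, minus strand), averaged 251 ± 81.6, 232 ± 11.7 and 199 ± 41.0 RPKM in gFBXW7 + gKMT2D, gFBXW7 and gLuc cells. MRPL12 (chr17:81703357-81707526, plus strand), the counterpart of the bacterial stalk protein L7/L12, was next, with 206 ± 79.3, 221 ± 38.8 and 175 ± 55.2 RPKM in the groups in that order. The order of these genes was the same in the means of all 3 groups. MRPL37 of the large subunit averaged 133 RPKM over all libraries. In the small subunit MRPS15 at 90.4 RPKM and MRPS27 at 85.7 RPKM followed, below MRPS34 in the means of every group.

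At the low end, MRPL19 averaged 9.70 RPKM, MRPL40 10.4 RPKM and MRPL30 10.6 RPKM among large subunit genes. In the small subunit MRPS25 was followed by MRPS11 at 10.9 RPKM and MRPS18C at 14.5 RPKM. These low values rest on adequate reads, since the smallest count of any tested member in any library was 239. RPKM divides by the row's gene length. MRPL19 and MRPS25 have long rows (7827 and 9738 bases, against a median of 1423 bases over the 77 genes). The rows of MRPS11 (5224 bases) and MRPL30 (4536 bases) are long too. At the high end, MRPL51 has a row of 677 bases, against 1234 bases for its longest GENCODE transcript. Levels per length, and the span between genes, therefore depend on the gene model used. The 3 libraries of each group overlapped for most genes, as the plot of RPKM by gene shows.

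**Figure D1:**
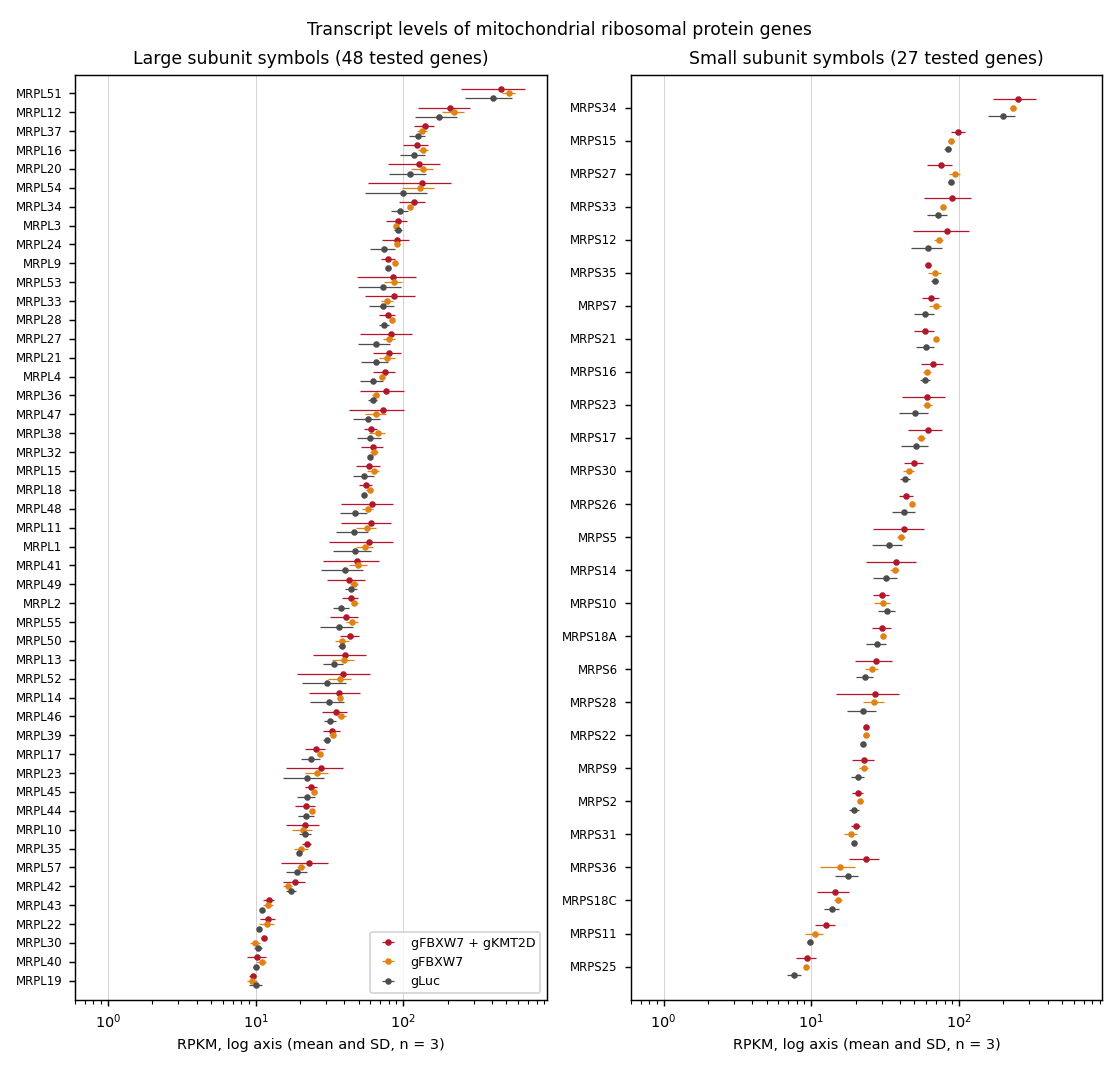
Mean RPKM of each of the 75 tested genes in gFBXW7 + gKMT2D (red, top of each triplet), gFBXW7 (orange) and gLuc cells (grey), on a log axis, with bars for the SD over 3 libraries; large subunit symbols are on the left and small subunit symbols on the right, sorted by level. Levels span 8.74 RPKM for MRPS25 to 460.1 RPKM for MRPL51, and the spread between genes is far wider than that between groups.

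Promoters of the family carry recognisable short sequences, whose part in the variation between libraries was not tested. RefSeq start sites on GRCh38.p14 were matched for 68 of the 77 genes, each with the 250 bases before and 50 bases after the start, on both strands. The letters AAGATGGC, a YY1-type motif, occurred in 21 of the 68 genes (30.9%), against 3.52% of 27305 genes. Those 27305 are all genes with a promoter entry, whether or not expressed in these cells, and no share over expressed genes was computed. The letters CCGGAAG, an ETS-type motif of the kind bound by GABPA, occurred in 29 of the 68 (42.6%), against 12.2% of all genes. By subunit, the YY1-type letters were in 13 of 41 large and 8 of 27 small subunit genes, and the ETS-type letters were in 17 of 41 and 12 of 27. At least 1 of the 2 motifs was found in 42 genes and both in 8.

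The NRF1-type and E-box letters were closer to the background, and the TATA box letters were rarer than in all genes. The NRF1-type motif (GCGC, any base, then TGCGC) was in 9 of the 68 genes (13.2%, against 6.98% of all genes) and the E-box CACGTG, bound by MYC among others, was also in 9 (13.2%, against 8.77%). The TATA box letters TATAAA were in 3 of the 68 (4.41%, against 14.0%). The YY1-type and ETS-type letters can share the bases AAG where they abut, and a match describes letters in the window, not binding.

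The sequences that follow run 5′ to 3′ from 70 bases before to 30 bases after the RefSeq start on GRCh38.p14, with motif letters in capitals on either strand. The first set holds the gene with the highest level (MRPL51), the one that varied most over the libraries (MRPL54) and the one that varied least (MRPL3). In MRPL51 the YY1-type letters lie after the start, in MRPL54 the ETS-type letters read on the opposite strand, and in MRPL3 they read on the gene's own strand.
MRPL51 (chr12:6493233-6493332, minus strand): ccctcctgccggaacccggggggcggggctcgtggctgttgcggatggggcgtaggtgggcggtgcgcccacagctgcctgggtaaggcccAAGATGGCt
MRPL54 (chr19:3762612-3762711, plus strand): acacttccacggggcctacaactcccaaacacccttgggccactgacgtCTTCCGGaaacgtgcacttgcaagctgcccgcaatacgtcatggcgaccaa
MRPL3 (chr3:131502942-131503041, minus strand): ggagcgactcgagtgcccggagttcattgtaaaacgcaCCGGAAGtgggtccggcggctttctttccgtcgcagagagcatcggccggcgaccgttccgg
The second set holds small subunit genes that come up again in the comparisons. MRPS27 and MRPS10 carry the YY1-type letters just after the start, MRPS10 also carries ETS-type letters, and none of these motifs is in this window of MRPS11.
MRPS27 (chr5:72320211-72320310, minus strand): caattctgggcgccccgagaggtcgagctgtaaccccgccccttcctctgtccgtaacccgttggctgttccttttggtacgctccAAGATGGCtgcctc
MRPS10 (chr6:42217832-42217931, minus strand): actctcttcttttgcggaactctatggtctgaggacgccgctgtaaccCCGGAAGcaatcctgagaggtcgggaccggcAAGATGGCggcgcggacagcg
MRPS11 (chr15:88467638-88467737, plus strand): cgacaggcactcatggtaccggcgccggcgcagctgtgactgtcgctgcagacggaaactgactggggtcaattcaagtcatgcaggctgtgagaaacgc
The third set contrasts MRPS18A, which holds both motifs, with MRPL9, whose window holds neither.
MRPS18A (chr6:43687762-43687861, minus strand): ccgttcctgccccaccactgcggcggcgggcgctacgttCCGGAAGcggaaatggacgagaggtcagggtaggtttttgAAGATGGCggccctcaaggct
MRPL9 (chr1:151763467-151763566, minus strand): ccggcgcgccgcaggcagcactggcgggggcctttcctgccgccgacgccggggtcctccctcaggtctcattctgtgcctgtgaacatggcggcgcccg

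Genes with and without a motif varied to a similar extent. Tested genes with the YY1-type letters had a median SD of log2 CPM over the 9 libraries of 0.26 (19 genes), against 0.30 for those without (47 genes). For the ETS-type letters the medians were 0.30 with (29 genes) and 0.28 without (37 genes). These are descriptions over genes, with no test.

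Most of the family was highest in 1 library. Of the 75 genes, 65 had their highest value in the gFBXW7 + gKMT2D library of replicate 3, where 30.8% of all tested genes were highest. That library also held the lowest value of 33.0% of all tested genes, and of 3 of the 75. The lowest value fell in the gLuc library of replicate 3 for 38 genes and in the gFBXW7 + gKMT2D library of replicate 2 for 25, the libraries where 16.7% and 16.3% of all genes were lowest. Relative to each gene's own mean, the median deviation of the 75 genes in gFBXW7 + gKMT2D libraries was 0.09, -0.36 and 0.53 on the log2 CPM scale. In gFBXW7 libraries it was 0.17, 0.03 and 0.01, and in gLuc libraries it was 0.12, -0.15 and -0.41. The lowest and the highest libraries of the gFBXW7 + gKMT2D group thus lay on either side of every gFBXW7 library, and the groups overlapped.

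**Figure D2:**
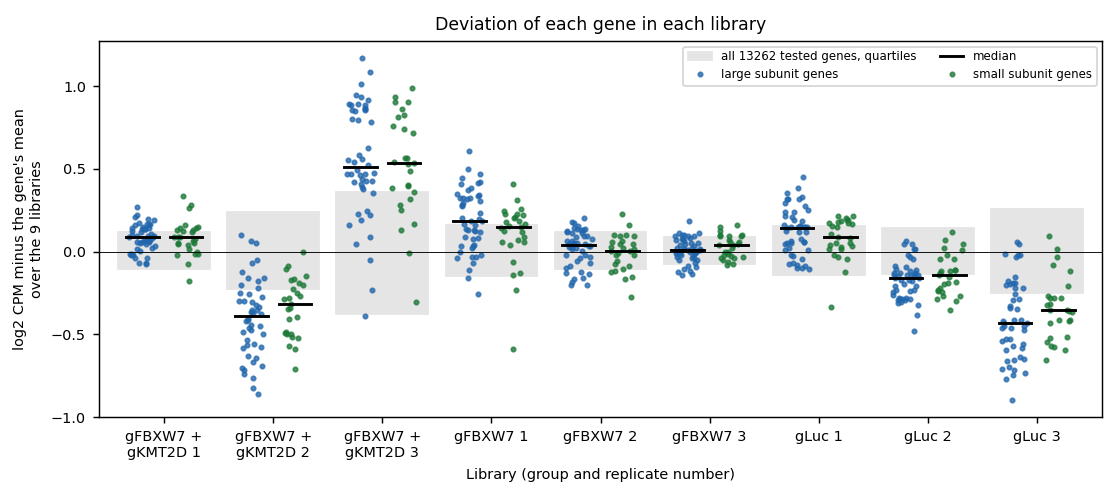
Deviation of log2 CPM from each gene's mean over the 9 libraries, for 48 large subunit genes (blue) and 27 small subunit genes (green) in every library, with black bars for medians and grey boxes for the quartiles of all 13262 tested genes. Medians of both subunits shift together, upward in gFBXW7 + gKMT2D 3 and downward in gFBXW7 + gKMT2D 2 and gLuc 3.

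Medians of large and small subunit genes shifted in the same direction. In gFBXW7 + gKMT2D libraries the large subunit medians were 0.09, -0.39 and 0.51 and the small subunit medians 0.09, -0.32 and 0.53. Summed over the large subunit, expression was 4351, 3123 and 6152 CPM in gFBXW7 + gKMT2D cells, 4820, 4231 and 4114 CPM in gFBXW7 cells and 4581, 3631 and 3085 CPM in gLuc cells. Summed over the small subunit it was 2293, 1753 and 3140 CPM, 2379, 2221 and 2227 CPM, and 2325, 1981 and 1751 CPM in the same groups. The sums differed more within the gFBXW7 + gKMT2D group than between the group means. In bulk libraries such as these, fewer cells with the transcripts and less of them per cell cannot be told apart.

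The ratio of the large to the small sum moved little. It was 1.90, 1.78 and 1.96 in gFBXW7 + gKMT2D cells (1.88 ± 0.0900, SD, n = 3), 2.03, 1.91 and 1.85 in gFBXW7 cells (1.93 ± 0.0915) and 1.97, 1.83 and 1.76 in gLuc cells (1.86 ± 0.106). Group means differed by less than the SD within a group. The ratio was lowest in the 2 libraries with the lowest large subunit sums. Structures of the human mitoribosome place MRPS18A and MRPS30 in the large subunit, and MRPS36 has been assigned to the 2-oxoglutarate dehydrogenase complex. Counted that way, the ratio ran between 1.98 and 2.23 over the 9 libraries.

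**Figure D3:**
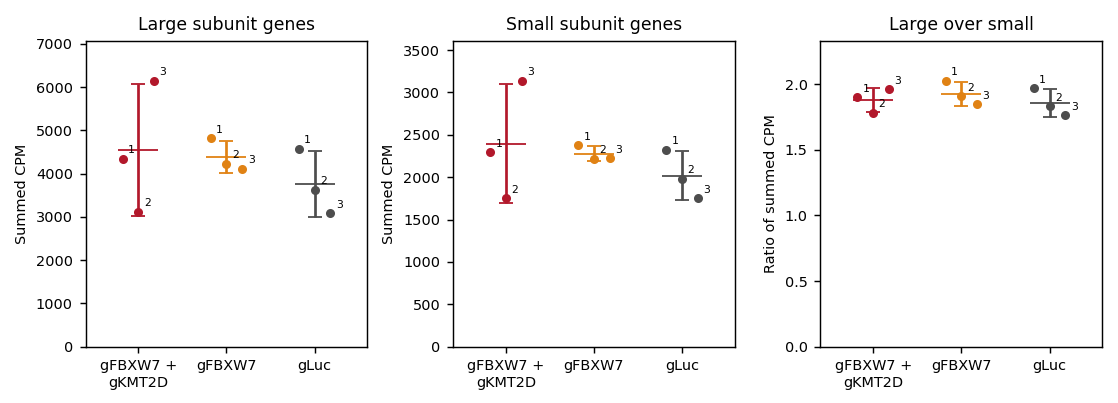
Summed CPM of the 48 large subunit genes (left) and the 29 small subunit genes (middle), and their ratio (right), for each library; points are libraries numbered by replicate, lines are group means and bars are SD over 3 libraries. The sums range from 3085 to 6152 and from 1751 to 3140 CPM, while the ratio stays between 1.76 and 2.03.

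Other measures also differed between libraries, not all in the order of these sums, and their part in the result was not tested. Cytosolic ribosomal protein genes took 8.06%, 5.44% and 11.2% of counts in gFBXW7 + gKMT2D libraries, 8.56%, 7.46% and 6.78% in gFBXW7 libraries and 8.23%, 6.15% and 5.02% in gLuc libraries, which is the same order of libraries at both ends. The 13 messenger RNAs of mitochondrial DNA took 3.63%, 3.67% and 2.04% in gFBXW7 + gKMT2D libraries, 0.638%, 1.52% and 1.54% in gFBXW7 libraries and 1.64%, 3.02% and 3.33% in gLuc libraries. Those were therefore lower in the gFBXW7 + gKMT2D library of replicate 3, where the family was highest, than in the others of that group.

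Gene length moved with the library pattern too. The family's rows are short, with a median of 1417 bases for the large and 1540 bases for the small subunit genes, against 3908.5 bases for all tested genes. In the gFBXW7 + gKMT2D library of replicate 3, the 26 tested members shorter than 1200 bases had a median deviation of 0.77, and the 49 longer ones 0.43. Over all genes, 1139 rows shorter than 1200 bases had a median deviation of 0.54 in that library, against -0.05 for the longer rows. Across the 75 members Spearman's rho of this deviation was -0.35 with gene length and -0.04 with GC content, a description over genes that share 1 library. The part of length in the result was not tested beyond the fit with the length trend removed, given for the comparisons against gLuc cells.

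Within the family, variation over the 9 libraries differed widely between genes. The SD of log2 CPM had a median of 0.29 (large subunit 0.31, small subunit 0.28), against 0.27 for all tested genes. Genes with a bacterial counterpart had a median of 0.31 (45 genes) and those counted as without one, MRPS18A among them, 0.26 (29 genes).

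The most variable gene was MRPL54, a mitochondria-specific large subunit protein (chr19:3762664-3768575, plus strand), with an SD of 0.68. It had 72.9, 38.7 and 158 CPM in gFBXW7 + gKMT2D cells, 107, 72.5 and 65.8 CPM in gFBXW7 cells and 96.0, 50.4 and 37.6 CPM in gLuc cells. Its highest and lowest gFBXW7 + gKMT2D libraries enclosed all of those with gFBXW7. MRPL51 also had its highest value in the gFBXW7 + gKMT2D library of replicate 3, with 283, 168 and 545 CPM in gFBXW7 + gKMT2D cells, 399, 343 and 312 CPM in gFBXW7 cells and 389.6, 242 and 179.8 CPM in gLuc cells.

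Others hardly moved. MRPL3, the counterpart of a bacterial protein near the peptidyl transferase centre (chr3:131462212-131502983, minus strand), had the smallest SD, 0.052. Its level was 172, 166 and 155 CPM in gFBXW7 + gKMT2D cells, 157, 158 and 159 CPM in gFBXW7 cells and 156, 166 and 157 CPM in gLuc cells. MRPL19 and MRPS10 came next, with SDs of 0.097 and 0.099. These 3 genes stayed level in libraries where most of the family shifted, so the shift was not shared by every gene. MRPL3 and MRPS10 were among 5 members below their own mean in the gFBXW7 + gKMT2D library of replicate 3, together with MRPL49 (-0.39), MRPS27 (-0.31) and MRPL10 (-0.23), the last of which is named after its value was seen.

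**Figure D4:**
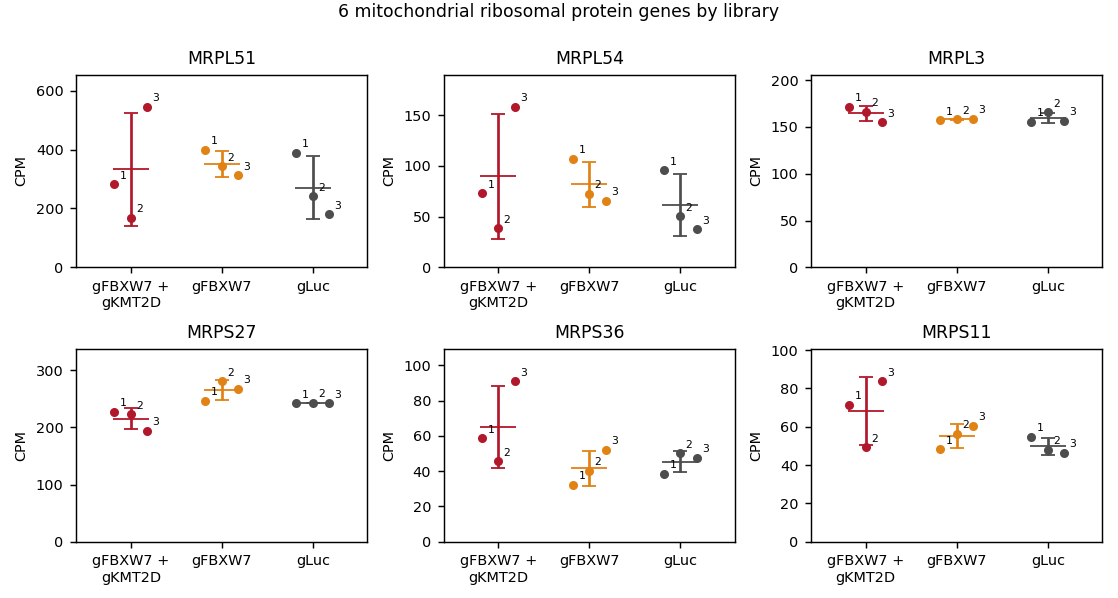
CPM of 6 genes in each library of gFBXW7 + gKMT2D (red), gFBXW7 (orange) and gLuc cells (grey); points are libraries numbered by replicate, horizontal lines are means and bars are SD over 3 libraries. MRPL51 and MRPL54 spread over a wide range within the gFBXW7 + gKMT2D group, MRPL3 stays between 155 and 172 CPM, and the 3 gFBXW7 + gKMT2D values of MRPS27 lie below all others.

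Cells with both RNAs were first set against luciferase control cells, which asks what the combined targeting of FBXW7 and KMT2D did. None of the 75 tested genes passed an adjusted p of 0.05 in edgeR's quasi-likelihood test with Benjamini-Hochberg adjustment over 13262 genes, where 0.0528% of all genes did. The lowest adjusted p of a member was 0.90. At an unadjusted p under 0.05 there was 1 member, MRPS11, against 3.61% of all genes, and DESeq2 called none after adjustment. Most estimates were nevertheless above 0: 46 of 48 large subunit and 24 of 27 small subunit genes, 70 of 75 in all, against 50% of all genes. The median log2 fold change was 0.29 over the large and 0.29 over the small subunit genes, against 0.00 over all tested genes, with a median standard error of 0.21 for a single gene.

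That median rested on single libraries. Without the gFBXW7 + gKMT2D library of replicate 3 it was -0.00 (-0.01 over the large and 0.01 over the small subunit genes), and 37 of 75 genes were above 0, against 47.7% of all genes. Without that of replicate 2 it was 0.45 (0.45 over both subunits), and 44 of 75 genes had an unadjusted p under 0.05, against 18.7% of all genes, yet none passed the adjusted threshold. Without any other single library of either group, between 0 and 4 members had such a p, 4 of 75 without the gLuc library of replicate 1, against 4.5% of all genes, and 0 against 3.11%, 2.09% and 2.52% without the gFBXW7 + gKMT2D library of replicate 1 and the gLuc libraries of replicate 2 and replicate 3. Leaving out the gLuc library of replicate 3 gave 0.18. With the length trend of each library removed the median was 0.16, and with 1 surrogate variable it was 0.02.

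By subunit, the highest large subunit estimates were those of MRPL54 (0.55, SE 0.49), MRPL48 (0.50, SE 0.33) and MRPL11 (0.49, SE 0.34), the counterpart of the bacterial stalk base protein L11. The MRPL54 estimate turned to -0.09 with 1 surrogate variable and to -0.14 without the gFBXW7 + gKMT2D library of replicate 3, where MRPL48 was at 0.03 and MRPL11 at 0.05. MRPL11 had 101, 60.3 and 167 CPM in gFBXW7 + gKMT2D cells, against 103, 74.0 and 57.5 CPM in gLuc cells. Only the library of replicate 3 exceeded all gLuc libraries there, and the groups overlapped. The lowest large subunit estimates were close to 0, with MRPL49 at -0.01, MRPL19 at -0.00 and MRPL3 at 0.05. For MRPL3 the 95% confidence interval was -0.20 to 0.29, which bounds any difference more tightly than for most of the family.

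The highest small subunit estimates were those of MRPS12 (0.54, SE 0.35), the counterpart of a bacterial decoding centre protein, MRPS36 (0.52, SE 0.26) and MRPS5 (0.45, SE 0.32), whose bacterial counterpart lines the path of the messenger RNA. MRPS12 had 104, 62.8 and 185 CPM in gFBXW7 + gKMT2D cells, against 105, 77.3 and 59.2 CPM in gLuc cells. Without the gFBXW7 + gKMT2D library of replicate 3 the estimates were 0.05 for MRPS12, 0.20 for MRPS36 and -0.03 for MRPS5. MRPS5 shares 8.19% of its exon bases with ZNF514 on the same strand. For MRPS12 a single library exceeded all gLuc libraries. MRPS11, whose bacterial counterpart sits on the platform of the subunit (chr15:88467453-88480773, plus strand), had 71.5, 49.3 and 83.9 CPM in gFBXW7 + gKMT2D cells, against 54.8, 48.0 and 46.5 CPM in gLuc cells. Its log2 fold change was 0.45 (95% confidence interval 0.02 to 0.88, unadjusted p = 0.040, adjusted p = 0.90 by edgeR's quasi-likelihood test), and the groups overlapped.

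MRPS27, a mitochondria-specific protein with pentatricopeptide repeats (chr5:72219409-72320646, minus strand), went the other way. It had 228, 223 and 194 CPM in gFBXW7 + gKMT2D cells, against 243, 243 and 242 CPM in gLuc cells. All 3 libraries lay below those of gLuc cells, which held for 1 member of 75 and for 3.69% of all genes. No member lay wholly above, against 3.28% of all genes. The log2 fold change of MRPS27 was -0.18 (95% confidence interval -0.45 to 0.10), with an adjusted p of 0.90 in edgeR's quasi-likelihood test.

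**Figure D5:**
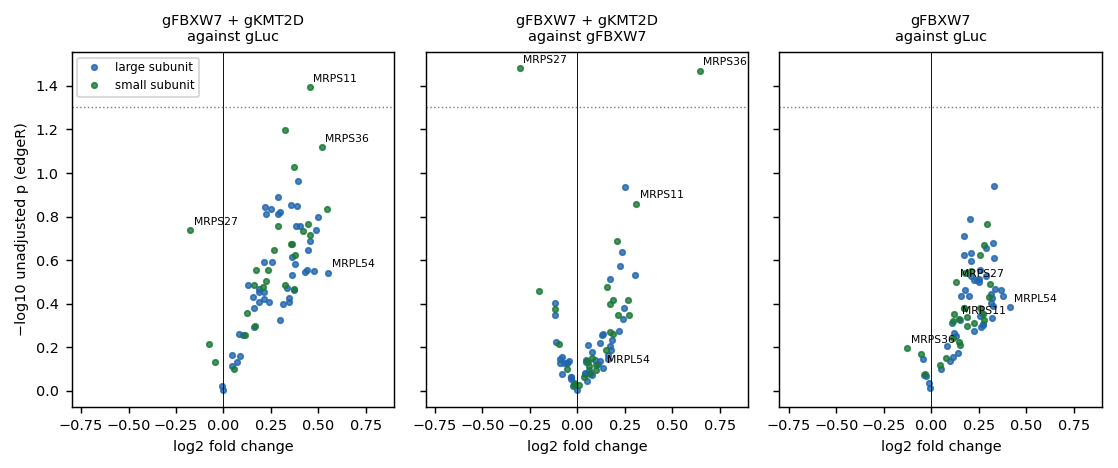
Log2 fold change and -log10 of the unadjusted p of edgeR's quasi-likelihood test for the 75 tested genes in gFBXW7 + gKMT2D against gLuc, gFBXW7 + gKMT2D against gFBXW7 and gFBXW7 against gLuc cells, with large subunit genes in blue and small subunit genes in green; the dotted line marks an unadjusted p of 0.05. Most genes lie right of 0 in both panels against gLuc cells, and 1 gene lies above the line in gFBXW7 + gKMT2D against gLuc, 2 in gFBXW7 + gKMT2D against gFBXW7 and none in gFBXW7 against gLuc cells.

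The addition of KMT2D targeting was read from gFBXW7 + gKMT2D against gFBXW7 cells. No member passed the adjusted threshold, against 0.0603% of all genes, and the lowest adjusted p was 1.0. Members at an unadjusted p under 0.05 were MRPS27 and MRPS36 (2 of 75, against 4.22% of all genes), and DESeq2 called none after adjustment. Of the 75 genes, 51 were above 0 (31 large and 20 small subunit genes), against 54.6% of all genes. The median log2 fold change was 0.06 over the large and 0.10 over the small subunit genes, against 0.02 over all genes. Without the gFBXW7 + gKMT2D library of replicate 3 the median over all members was -0.19 (-0.19 over the large and -0.16 over the small subunit genes), with 11 of 75 above 0 against 53.0% of all genes, and without that of replicate 2 it was 0.29 (0.28 and 0.32), with 70 of 75 above 0 against 50.2% of all genes.

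MRPS36 had the highest estimate. It had 58.5, 45.8 and 91.1 CPM in gFBXW7 + gKMT2D cells, against 32.2, 40.3 and 52.2 CPM in gFBXW7 cells. The log2 fold change was 0.64 (95% confidence interval 0.06 to 1.23, unadjusted p = 0.034, adjusted p = 1.0 by edgeR's quasi-likelihood test), and the lowest gFBXW7 + gKMT2D library lay within the gFBXW7 range. That estimate was 0.33 without the gFBXW7 + gKMT2D library of replicate 3. Gene MRPS36 had 38.5, 50.2 and 47.6 CPM in gLuc cells. After MRPS36 came MRPS11 (0.31) and MRPS12 (0.27) in the small subunit and MRPL36 (0.30), MRPL30 (0.25) and MRPL57 (0.25) in the large subunit. Without that library MRPS11 was at 0.14, MRPS12 at -0.22, MRPL36 at -0.10, MRPL30 at 0.11 and MRPL57 at -0.19.

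MRPS27 had the lowest estimate, at 228, 223 and 194 CPM in gFBXW7 + gKMT2D cells, against 247, 281 and 268 CPM in gFBXW7 cells. The groups did not overlap, which held for 1 member of 75 in this direction and for 5.2% of all genes, and for none in the other direction, against 4.35%. Its log2 fold change was -0.30 (95% confidence interval -0.58 to -0.03, unadjusted p = 0.033, adjusted p = 1.0 by edgeR's quasi-likelihood test), and it stayed between -0.35 and -0.23 when any 1 library was left out. MRPS21 (-0.20) and MRPS35 (-0.12) were next in the small subunit, and MRPL9 (-0.12), MRPL49 (-0.12) and MRPL38 (-0.11) had the lowest estimates in the large subunit. Without the gFBXW7 + gKMT2D library of replicate 2, MRPS21 was at -0.02, MRPL9 at -0.02 and MRPL38 at 0.03, and without that of replicate 3 MRPL49 was at 0.04 and MRPS35 at -0.22.

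FBXW7 targeting alone was read from gFBXW7 against gLuc cells. Again no member was called, as was no gene of the 13262 (0.0%), and DESeq2 called no member. No member had an unadjusted p under 0.05, against 1.58% of all genes, and the lowest adjusted p was 0.96. Estimates above 0 were found for 43 of 48 large and 24 of 27 small subunit genes, 67 of 75 in all, against 49.3% of all genes. The median log2 fold change was 0.22 over the large and 0.17 over the small subunit genes, against -0.00 over all genes. The median over all members, 0.21, was 0.35 without the gLuc library of replicate 1 and 0.09 without that of replicate 3. It was 0.11 with the length trend removed and 0.02 with 1 surrogate variable.

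Groups did not overlap, with gFBXW7 higher, for 6 of the 75 genes (8.0%, against 4.37% of all genes), and with gFBXW7 lower for none, against 4.49%. The 6 were MRPL9, MRPL18, MRPL22, MRPL39, MRPS18C and MRPS27, of which MRPL18, MRPL22 and MRPL39 are named after their values were seen. MRPL9, the counterpart of bacterial L9, had 163, 165 and 158 CPM in gFBXW7 cells, against 156, 135 and 132 CPM in gLuc cells, with a log2 fold change of 0.20 (SE 0.13). MRPS27 had 247, 281 and 268 CPM in gFBXW7 cells, against 243, 243 and 242 CPM in gLuc cells, a log2 fold change of 0.13 (SE 0.12). In both, the lowest gFBXW7 library lay only just above the highest gLuc library.

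The highest estimates in this comparison were those of MRPL54 (0.42), MRPL51 (0.38) and MRPL12 (0.37) in the large subunit and MRPS23 (0.31), MRPS5 (0.30) and MRPS25 (0.29) in the small subunit. Without the gLuc library of replicate 3 the first 3 were at 0.15 each, MRPS23 at 0.14, MRPS5 at 0.13 and MRPS25 at 0.23. Without that of replicate 1 MRPL54 was at 0.89, MRPL51 at 0.74, MRPL12 at 0.69, MRPS23 and MRPS5 at 0.54 and MRPS25 at 0.43. MRPL12 had 277, 207 and 192 CPM in gFBXW7 cells, against 245, 160.3 and 119.7 CPM in gLuc cells, and the groups overlapped. At the other end MRPS36 was at -0.13, MRPS10 at -0.05 and MRPS31 at -0.03, and in the large subunit MRPL19, MRPL42 and MRPL30 lay between -0.05 and -0.03. The 3 comparisons share libraries in pairs, so their estimates are not independent of each other.

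The paralogs related to bacterial S18 differed in level. MRPS18A had 46.0, 32.8 and 55.0 CPM in gFBXW7 + gKMT2D cells, 45.9, 43.4 and 41.0 CPM in gFBXW7 cells and 47.4, 35.7 and 32.5 CPM in gLuc cells. MRPS18C had 16.2, 10.96 and 22.9 CPM, 16.6, 16.3 and 17.5 CPM, and 16.2, 15.9 and 12.3 CPM in the same groups. Per length, MRPS18A averaged 29.6 RPKM and MRPS18C 14.5 RPKM over the 9 libraries. In gFBXW7 + gKMT2D against gLuc cells their log2 fold changes were 0.21 (SE 0.20) and 0.17 (SE 0.24). MRPS30, placed in the large subunit with MRPS18A by structure, had a log2 fold change of 0.29 (SE 0.20) in that comparison.

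Members with a bacterial counterpart had a median log2 fold change in gFBXW7 + gKMT2D against gLuc cells of 0.31 (43 of 45 above 0). For mitochondria-specific ones it was 0.22 (26 of 29 above 0). MRPS18A was counted as mitochondria-specific, although it is related to bacterial S18. In gFBXW7 against gLuc cells the medians were 0.22 and 0.17. In gFBXW7 + gKMT2D against gLuc cells they were 0.01 and -0.01 without the gFBXW7 + gKMT2D library of replicate 3. The large minus the small subunit median was -0.00 in gFBXW7 + gKMT2D against gLuc, -0.04 in gFBXW7 + gKMT2D against gFBXW7 and 0.05 in gFBXW7 against gLuc cells. With 1 library left out it ranged between -0.03 and 0.04, between -0.07 and 0.01 and between 0.02 and 0.09 in the same order, so it kept its sign in gFBXW7 against gLuc cells. These differences of medians are descriptions, with no test.

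Genes that work with these proteins were listed apart. Of 6 mitoribosomal proteins with other symbols, 6 were tested and edgeR called 0 in any comparison, with 0 at an unadjusted p under 0.05, against 3.61%, 4.22% and 1.58% of all genes in the order of comparisons above. Their median log2 fold change in gFBXW7 + gKMT2D against gLuc cells was 0.32, and -0.03 without the gFBXW7 + gKMT2D library of replicate 3, with ICT1, a peptidyl hydrolase built into the large subunit, at 0.42 (SE 0.23), CHCHD1 at 0.41 (SE 0.40) and GADD45GIP1 at 0.37 (SE 0.37). CHCHD1 had 56.7, 29.8 and 107 CPM in gFBXW7 + gKMT2D cells, against 64.7, 45.7 and 34.3 CPM in gLuc cells, with the same libraries high and low as in most of the family.

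Of 29 listed assembly factors, 27 were tested and edgeR called 0. At an unadjusted p under 0.05 there were 0, 1 and 0, against 3.61%, 4.22% and 1.58% of all genes. Their medians were 0.06 in gFBXW7 + gKMT2D against gLuc, -0.04 in gFBXW7 + gKMT2D against gFBXW7 and 0.14 in gFBXW7 against gLuc cells. The median in the first of these ranged between 0.02 and 0.19 with 1 library left out. The largest estimate in the first comparison was that of MALSU1, which binds the large subunit during assembly, at 0.43 (SE 0.33), followed by the pseudouridine synthase TRUB2 (0.29, SE 0.20) and MTERF3 (0.27, SE 0.19). Of 17 listed translation factors and messenger RNA regulators, 16 were tested and edgeR called 0. At an unadjusted p under 0.05 there were 1, 1 and 0, against the same shares of all genes. Their medians were 0.17, 0.09 and 0.07 in the same order of comparisons, the first between 0.05 and 0.23 with 1 library left out. C12orf65, a release factor of ribosome rescue, was at 0.75 (SE 0.33) in the first comparison, SLIRP, which stabilises mitochondrial messenger RNA, at 0.53 (SE 0.41) and the formyltransferase MTFMT at 0.29 (SE 0.21). C12orf65 had 57.6, 40.8 and 120 CPM in gFBXW7 + gKMT2D cells, against 51.7, 40.4 and 37.6 CPM in gLuc cells. SLIRP had 43.0, 23.7 and 89.2 CPM, against 47.2, 33.5 and 26.7 CPM. In both, the groups overlapped and the gFBXW7 + gKMT2D library of replicate 3 was highest.

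The transcripts that the mitochondrial ribosome translates showed a different order of groups. The 13 messenger RNAs of mitochondrial DNA had median log2 fold changes of 0.33 in gFBXW7 + gKMT2D against gLuc, 1.26 in gFBXW7 + gKMT2D against gFBXW7 and -1.03 in gFBXW7 against gLuc cells. Of these 13, edgeR called 0 in any comparison. At an unadjusted p under 0.05 there were 1, 13 and 10, against 3.61%, 4.22% and 1.58% of all genes. Genes of a list were measured in the same libraries, so such counts are not independent results for each gene. With 1 library left out the medians of the 13 ranged between 0.05 and 0.54, between 0.99 and 1.47 and between -1.25 and -0.77. Cytosolic ribosomal protein genes, 78 tested and 0 called by edgeR, had medians of 0.48, 0.28 and 0.24, with the same sign as the mitochondrial ribosomal genes in each comparison. Of these 78, 12, 3 and 0 had an unadjusted p under 0.05, against the same shares of all genes. The cytosolic medians were 0.08 against gLuc and -0.15 against gFBXW7 cells without the gFBXW7 + gKMT2D library of replicate 3.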

How the data were processed

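Libraries were stranded (dUTP) and made from poly(A) RNA, per the labels' protocols. The submitters' processing notes name GRCh38 and, with no version, STAR, Trimmomatic, DESeq2 and featureCounts. Per the file headers, the authors deposited read counts, whole numbers and not normalised, beside RPKM values. Recomputing the RPKM gave a largest relative difference of 8.5e-07. A row equal to the sum of all others was left out. Counts were tested in R 4.3.3 with edgeR 4.0.16: filterByExpr, TMM, and a quasi-likelihood fit of group over all 9 libraries, with Benjamini-Hochberg adjustment and a threshold of 0.05. CPM is scaled by TMM, and log2 CPM has a prior count of 2. Intervals are at 95%. Alternatives used DESeq2 1.42.0, limma 3.58.1 on log2 of RPKM plus 1, and sva 3.50.0. The edgeR fit was tested on simulated counts, in gFBXW7 + gKMT2D against gLuc only. Genes varied independently there, so shifts shared by many genes of a library were not simulated. Coordinates are those of GENCODE v29, matched by symbol for all 77 genes, and promoters are from RefSeq. Named genes pass the threshold, have the 3 highest or lowest fold changes (at a mean log2 CPM of at least 2) or levels of their subunit, fail the filter, vary most, or are MRPS18A, MRPS18B, MRPS18C, MRPS30 or MRPS36. From each list of related genes at most 3 are named, by the largest absolute log2 fold change in gFBXW7 + gKMT2D against gLuc cells. Members, lists and rules were chosen with earlier results of these data known.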

Additional observations from a re-analysis of the deposited data

How the results depend on the processing

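No member passed the adjusted threshold under any of the 21 alternatives, although 124 genes did in gFBXW7 + gKMT2D against gFBXW7 with 1 surrogate variable and 32 with DESeq2, against 8 in the fit reported. Medians over the members kept their sign in gFBXW7 against gLuc cells (0.02 to 0.35), and in gFBXW7 + gKMT2D against gLuc cells with every library kept (0.02 to 0.31). In the latter, the large subunit median ranged from -0.0024 to 0.31 and so did not keep its sign. The small subunit median stayed between 0.034 and 0.30. Over all members, leaving out 1 library gave -0.00 to 0.45 in gFBXW7 + gKMT2D against gLuc cells. It gave -0.19 to 0.29 in gFBXW7 + gKMT2D against gFBXW7 cells, where limma gave -0.02 and the surrogate variable -0.01. Deviations of same-numbered libraries correlated at -0.586 to 0.454 in 9 pairs, not all above 0.1. Those of differently numbered libraries ranged more widely, from -0.735 to 0.720. These values therefore cannot tell whether the replicate numbers pair the libraries. With the replicate block the medians were 0.26, 0.05 and 0.21 in the order of the report, and 2, 2 and 0 genes were called.

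Of 36 named fold changes, 9 turned sign under an alternative that kept every library, and the cause was not tested. In gFBXW7 + gKMT2D against gLuc cells, MRPL19 was at 0.0074 in the 6 compared libraries alone, 0.0072 with DESeq2, 0.0082 with DESeq2 size factors, 0.026 with the GC trend removed, 0.011 when a mean of 50 reads was required, 0.11 with the length trend removed and 0.013 with upper quartile scaling. MRPL3 was at -0.035 with the length trend removed and -0.026 with limma. MRPL49 was at 0.077 with the surrogate variable, 0.018 with the GC trend removed, 0.0023 with the mean of 50 reads required and 0.0083 with upper quartile scaling, and MRPL54 was at -0.092 with the surrogate variable. In gFBXW7 against gLuc cells, removing the GC trend, an alternative chosen after seeing the data, gave 0.044 for MRPL19, 0.017 for MRPL30, 0.050 for MRPL42, 0.010 for MRPS10 and 0.040 for MRPS31. Removing the length trend there gave 0.074 for MRPL19 and 0.017 for MRPL30.

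Leaving out 1 library turned 16 named fold changes. In gFBXW7 + gKMT2D against gLuc cells MRPL19 ranged between -0.076 and 0.040, MRPL49 between -0.12 and 0.14, MRPL54 between -0.14 and 1.03, MRPS10 between -0.12 and 0.0015 and MRPS5 between -0.027 and 0.72. In gFBXW7 + gKMT2D against gFBXW7 cells MRPL36 ranged between -0.099 and 0.57, MRPL38 between -0.24 and 0.031, MRPL49 between -0.23 and 0.036, MRPL57 between -0.19 and 0.50 and MRPS12 between -0.22 and 0.57. In gFBXW7 against gLuc cells MRPL19 ranged between -0.088 and 0.0036, MRPL30 between -0.070 and 0.010, MRPL42 between -0.073 and 0.0077, MRPS10 between -0.13 and 0.0061, MRPS31 between -0.098 and 0.0039 and MRPS36 between -0.32 and 0.027.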
